A study of Arabidopsis thaliana with 4 samples.

Results

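TCP proteins are plant transcription factors named after TEOSINTE BRANCHED1, CYCLOIDEA and PCF. The 7 genes described here are TCP2 (AT4G18390), TCP3 (AT1G53230), TCP4 (AT3G15030), TCP10 (AT2G31070) and TCP24 (AT1G30210), whose transcripts are cut under the guidance of the microRNA miR319, and TCP14 (AT3G47620) and TCP15 (AT1G69690). They were taken by locus from a given list, and all 7 were found among the 34133 loci of the expression files. The study asked about biomass heterosis, in which hybrids outgrow the inbred lines they come from, and sequenced RNA of the first leaf of Arabidopsis thaliana plants aged 14 days on Murashige and Skoog medium containing 1% sucrose. Of the 4 libraries, 2 came from the inbred accession Ak-1 and 2 from the hybrid Col-0xAk-1, a cross of Ak-1 with the reference accession Col-0. The names conflict in the labels: titles and strain give Ak-1, the genotype field gives Aa-0 and the series text gives Ak-0, so Ak-1 follows the titles. No treatment or transgene is labelled, and Col-0 itself was not analysed here, so a hybrid level cannot be set against the mean of its parents. Whether replicates were separate plants or pools is not labelled, and the p-values then measure only the spread between these samples, which may be technical.

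TCP2, TCP3, TCP4, TCP10 and TCP24 belong to class II of the family, in its CINCINNATA (CIN) branch, named after a snapdragon gene. CIN-type factors push leaf cells from division to expansion and differentiation, and leaves that lose them grow on at the margin and crinkle. miR319 keeps their transcripts low in young tissue. TCP14 and TCP15 are class I factors that modulate cell proliferation in leaves and internodes and interact with DELLA proteins, the repressors of gibberellin responses, and with SPINDLY.

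The miR319 target sites, found in the 5 CIN-type members but not in TCP14 and TCP15, are shown first. Mature miR319a was read from the RefSeq annotation of build TAIR10.1 (chr4:12353109-12353129, plus strand), with bases 2 to 8, the seed, in capitals. miR319b has the same 21 bases and miR319c shares 20 of them, with the single change C20U counted from the 5′ end, so all 3 share the seed UGGACUG.
miR319a: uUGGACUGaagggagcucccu

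The best-paired stretch of 21 bases in each member's transcript of the same reference (Col-0) follows, 5′ to 3′, with capitals for bases that form a Watson-Crick pair with miR319a. All 5 stretches lie in the coding sequence, which is a single exon in each of these genes.
TCP2: caGGgGgaCCCUUCAGUCCAA
TCP24: uaGGgGgaCCCUUCAGUCCAA
TCP10: AaGGgGuaCCCUUCAGUCCAg
TCP4: gaGGgGucCCCUUCAGUCCAg
TCP3: gaGGgGucCCCUUCAGUCCAu

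The sites are at chr4:10163402-10163422 on the minus strand for TCP2, chr1:10628989-10629009 on the minus strand for TCP24, chr2:13221210-13221230 on the minus strand for TCP10, chr3:5063300-5063320 on the plus strand for TCP4 and chr1:19850522-19850542 on the minus strand for TCP3 (TAIR10.1). TCP2, TCP24 and TCP10 form Watson-Crick pairs with miR319a at 16 of 21 bases, and TCP3 and TCP4 at 15. All counts of paired bases given here are of Watson-Crick pairs only. Pairs of G with U, which are left out, number 1 each in TCP2 and TCP24, 3 each in TCP10 and TCP3 and 4 in TCP4. The counts therefore do not rank the sites by all pairs. The stretch CCCUUCAGUCCA, which pairs with bases 2 to 13 of miR319, was in all 5. Of 27440 nuclear protein-coding genes searched, 7 hold it in a transcript (0.0255%), and none of the 17 other TCP genes does. That stretch was chosen from the pairing of the members themselves, so its rarity is partly built in. Over the whole 21 bases, 319 of the 27440 genes (1.16%) have a stretch that pairs at 15 bases or more, as TCP3 and TCP4 do, and 45 have one at 16 or more. The best stretch paired at 12 bases in TCP14 and in TCP15. These matches describe the Col-0 reference; the Ak-1 alleles were not read.

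Expression was deposited as FPKM, mapped fragments divided by transcript length and library total, so levels of different genes can be compared per length. Total depth is not in the files; from the steps between the lowest values, it was estimated as 1.14 times that of Ak-1 replicate 1 for Ak-1 replicate 2, and 1.32 and 1.19 times for hybrid replicates 1 and 2. The hybrid libraries were less alike than the Ak-1 libraries: Pearson's r of log2(FPKM + 1) across 15905 tested loci, which are not independent replicates, was 0.968 against 0.990, and 74 loci against 0 differed by over 4-fold on that scale. All 5 leaf markers were at 1496 FPKM or more in every library, and none was called between the groups, where 4.13% of all tested loci were. The one with the smallest adjusted p was GLDP1, for a subunit of glycine decarboxylase in photorespiration, at 1496 and 1497 FPKM in Ak-1 against 2268 and 2738 in the hybrid (log2 difference 0.74, limma adjusted p = 0.0966). The leaf markers went both ways, with 3 positive and 2 negative differences. RBCS1B was at 3496 and 2693 FPKM in Ak-1 against 2062 and 2282 in the hybrid (−0.50, limma adjusted p = 0.247). The 9 markers of shoot apex and organ boundaries were at 0.28 FPKM or less in every library, with WUS and CLV3 at 0 throughout. Among cyclin genes of dividing cells, CYCB1;1 was at 0.73 and 0.51 FPKM in Ak-1 against 0.17 and 0.26 in the hybrid. CYCA1;1 was at 0.49 and 0.78 against 0.48 and 0.39, and both were under the filter and not tested. The other cell cycle genes of the same list, reported targets of class I factors, went both ways, and none was called. Mean FPKM in Ak-1 and the hybrid was 1.245 and 0.795 for CYCA2;3 and 2.40 and 1.755 for PCNA1. It was 2.505 and 3.50 for PCNA2 and 8.925 and 10.615 for RBR1. The 5 root markers were at 0.17 FPKM or less. Of the flower markers only SEP3, at 2.33 and 1.84 FPKM in Ak-1 against 0.77 and 0.61 in the hybrid, passed the filter of a mean of at least 1 FPKM. It was not called (log2 difference −0.87, limma adjusted p = 0.0838). The other 4 flower markers, near 0, went both ways: hybrid means were higher for AP3 and PI and lower for AG and AP1. In RNA from a whole leaf, fewer cells of a type and less RNA per cell cannot be told apart.

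All 7 members passed that filter. None was called higher or lower in the hybrid than in Ak-1 (limma on log2(FPKM + 1), Benjamini-Hochberg adjusted p under 0.05 over all tested loci). Of the 15905 tested loci 4.13% were called, 1.62% as higher and 2.51% as lower. The unadjusted p was under 0.05 for 2 members, TCP3 and TCP10, against 20.2% of tested loci, and limma without the trend also called none. Libraries of the groups did not overlap for 4 members, against 53.1% of tested loci. TCP3, TCP4 and TCP10 were the 3 with higher hybrid libraries, against 20.5% of tested loci, and TCP14 was the 1 with lower ones, against 32.6%. The median log2 difference over the 7 was 0.09, and over all tested loci −0.06. With 2 libraries a group, the smallest p of an exact two-sided permutation test of a single gene would be 0.333, so only the fit across all loci can make a call.

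**Figure D1:**
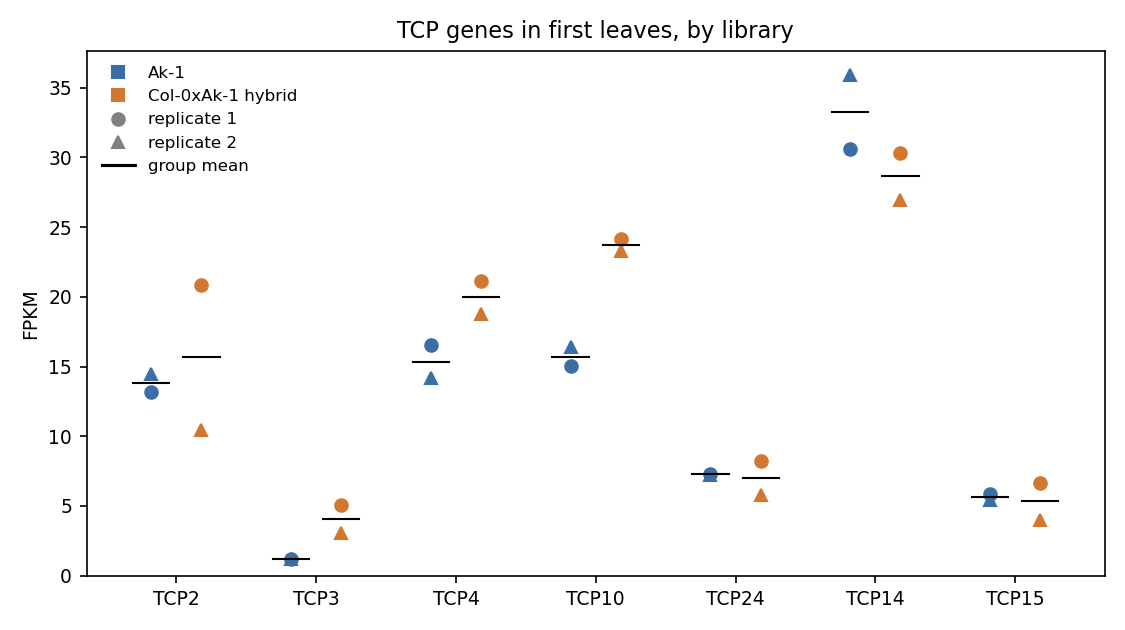
FPKM (y axis) of the 7 TCP genes (x axis) in each library, with Ak-1 in blue, the hybrid in orange, circles for replicate 1, triangles for replicate 2 and black lines for group means (n = 2). TCP14 is the highest in all 4 libraries and TCP3 the lowest, and the hybrid points of TCP2 lie farthest apart, at 20.9 and 10.4 FPKM.

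TCP10 was the CIN-type member with the smallest unadjusted p apart from TCP3. It was at 15.0 and 16.4 FPKM in Ak-1 against 24.2 and 23.3 in the hybrid. Both hybrid libraries lay above both Ak-1 libraries, and the hybrid pair was closer together than the Ak-1 pair. The hybrid mean was 1.51 times that of Ak-1 (15.7 ± 0.969 and 23.7 ± 0.629 FPKM, mean ± SD, n = 2), a log2 difference of 0.56 with SE 0.13 that did not pass the threshold (limma adjusted p = 0.101). It stayed positive in every alternative run, with adjusted p from 0.0895 to 0.633.

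TCP4, the best studied CIN-type gene, which acts in jasmonate synthesis and leaf maturation, was at 16.5 and 14.2 FPKM in Ak-1 against 21.2 and 18.8 in the hybrid. The hybrid values were again the higher ones, but the gap between groups, 16.5 to 18.8, was about as wide as the distance within each group. The log2 difference was 0.36 (95% interval −0.02 to 0.75, limma adjusted p = 0.273).

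TCP2 was at 13.2 and 14.5 FPKM in Ak-1 against 20.9 and 10.4 in the hybrid. The hybrid libraries fell on either side of the Ak-1 libraries, with replicate 1 at 2.0 times replicate 2. Only 5.01% of tested loci had hybrid libraries as far apart on the log2(FPKM + 1) scale. The log2 difference between groups was 0.09, with an interval from −0.72 to 0.91 (limma adjusted p = 0.905), and without hybrid replicate 1 it was −0.37.

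TCP24, which like TCP2 carries an arginine-rich R domain outside the TCP domain, was at 7.27 and 7.25 FPKM in Ak-1 against 8.22 and 5.82 in the hybrid. As for TCP2, the Ak-1 values lay between the hybrid values. The log2 difference was −0.06 (interval −0.53 to 0.42, limma adjusted p = 0.897), and its sign turned after quantile normalization and without hybrid replicate 2.

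TCP14 had the highest level of the 7, at 30.6 and 35.9 FPKM in Ak-1 against 30.3 and 27.0 in the hybrid. Hybrid replicate 1 lay just under Ak-1 replicate 1. The log2 difference was −0.21 (interval −0.60 to 0.19, limma adjusted p = 0.526). TCP15, its closest relative among the 7, was at 5.88 and 5.43 FPKM in Ak-1 against 6.66 and 4.02 in the hybrid. The hybrid values again enclosed the Ak-1 values, and the difference was −0.10 (interval −0.69 to 0.49, adjusted p = 0.856), turning positive after quantile normalization and without hybrid replicate 2. The intervals of 6 of the 7 members, all but TCP3, lay within 1 log2 unit on either side of 0.

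TCP3 was the lowest member in Ak-1, at 1.23 and 1.18 FPKM (about 37 and 40 fragments), and was at 5.09 and 3.03 FPKM in the hybrid (about 203 and 109 fragments). The hybrid mean was 3.37 times that of Ak-1, with a log2 difference of 1.17 (SE 0.24, limma adjusted p = 0.0721). Without hybrid replicate 2 that difference was 1.47 and passed the threshold (adjusted p = 0.0273), and without hybrid replicate 1 it was 0.87 (adjusted p = 0.0506).

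An antisense RNA locus, AT1G53233, covers 82.6% of the exonic bases of TCP3 on the opposite strand. It had 9.82 and 8.70 FPKM in Ak-1 against 3.48 and 2.48 in the hybrid, the opposite direction to TCP3, and it was called lower (log2 difference −1.38, limma adjusted p = 0.0237, but 0.0704 with no filter on low values, 0.233 without Ak-1 replicate 1 and 0.213 without Ak-1 replicate 2). The library kit does not mark strand, so reads of TCP3 and of AT1G53233 cannot be told apart over the shared bases. Summed, the FPKM of the 2 loci were 11.1 and 9.88 in Ak-1 against 8.57 and 5.51 in the hybrid. The sum was thus lower in both hybrid libraries, with a log2 difference of −0.54 (adjusted p = 0.262), the reverse of the difference of TCP3 alone. By estimated fragments, the pair held 346, 352 and 348 in the first 3 libraries and 202 in hybrid replicate 2. Of these, TCP3 was given 10.7% and 11.5% in Ak-1 against 58.3% and 53.9% in the hybrid.

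**Figure D2:**
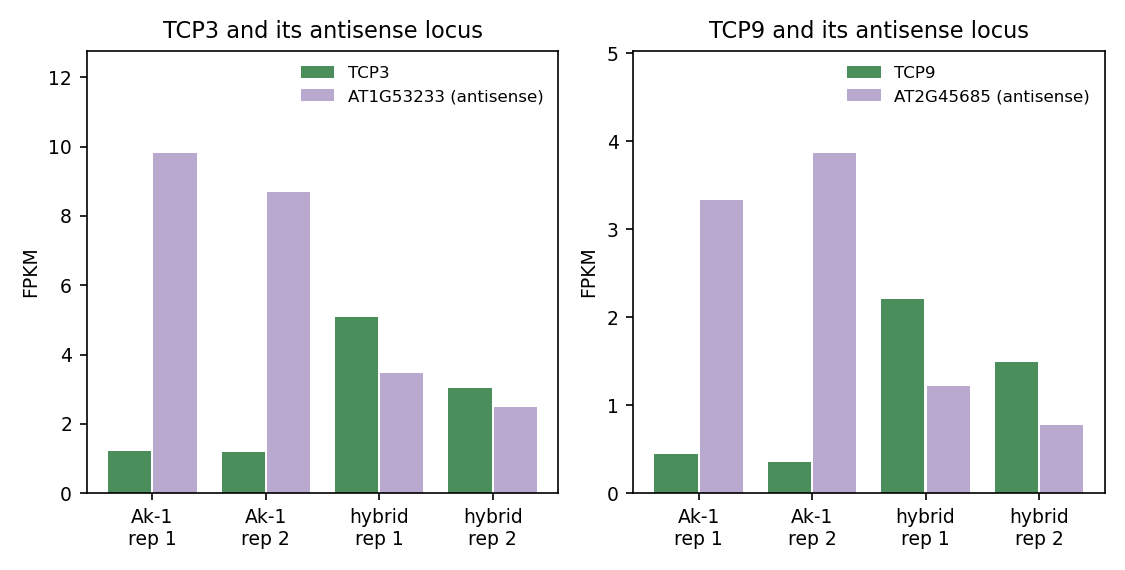
FPKM (y axis) in each library (x axis) of TCP3 and TCP9 (green) and of the antisense loci that overlap them (purple). In both panels the antisense locus is the taller bar in the Ak-1 libraries and the coding gene in the hybrid libraries.

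TCP9, a class I relative outside the 7, showed the same exchange. It was at 0.45 and 0.36 FPKM in Ak-1 against 2.21 and 1.49 in the hybrid (limma adjusted p = 0.0762). The antisense locus AT2G45685, which covers 98.6% of its exonic bases, was at 3.33 and 3.87 FPKM in Ak-1 against 1.22 and 0.77 in the hybrid (log2 difference −1.21, limma adjusted p = 0.0387). In 6 alternatives AT2G45685 was no longer called, with adjusted p from 0.0532 to 0.343. TCP9 was given 11.7% and 8.4% of the estimated fragments of its pair in Ak-1, against 64.0% and 65.5% in the hybrid.

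**Figure D3:**
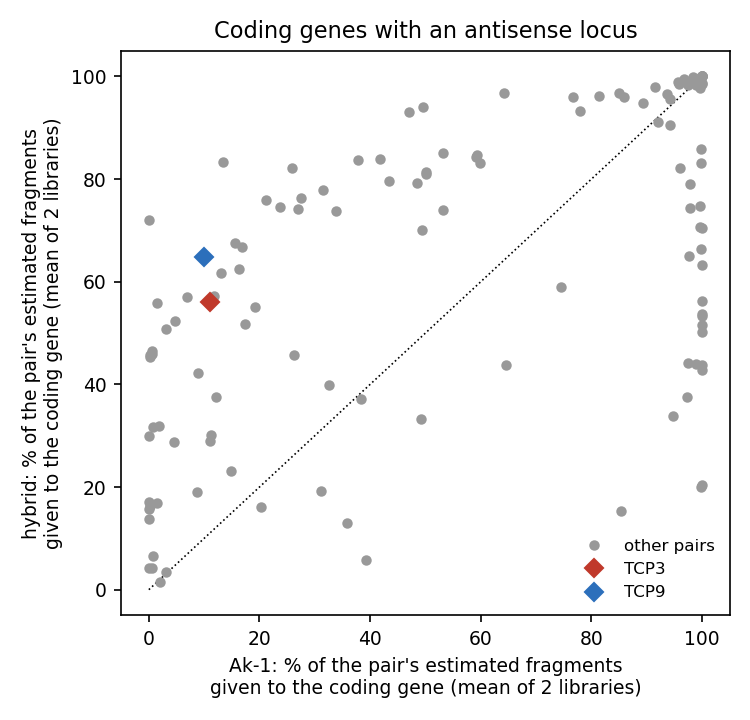
Share (%) of the estimated fragments of a coding gene and its antisense locus that was given to the coding gene, Ak-1 (x axis) against the hybrid (y axis), each the mean of 2 libraries, for 125 pairs (grey), with TCP3 in red, TCP9 in blue and the dotted line marking equal shares. TCP3 and TCP9 lie well above the line, and 56 of the 125 pairs lie over 30 percentage points from it.

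**Figure D4:**
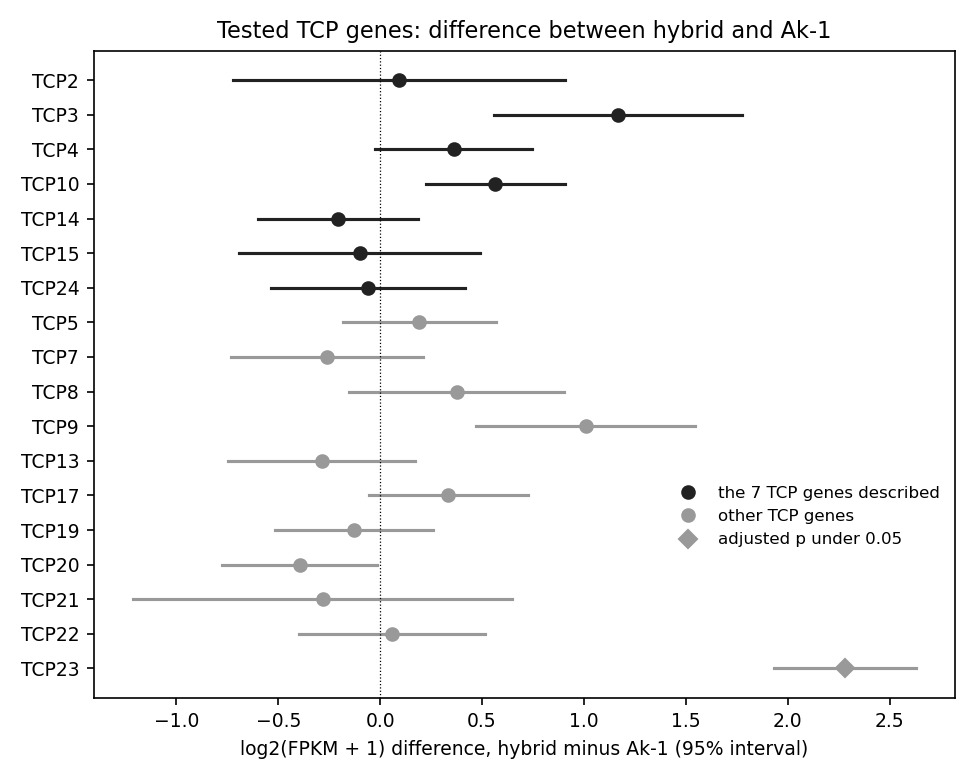
Log2(FPKM + 1) difference of hybrid minus Ak-1 (x axis) with 95% intervals for the 18 tested TCP genes (y axis), black for the 7 members and grey for the others, a diamond marking an adjusted p under 0.05. TCP23 alone carries a diamond, at 2.28, and the intervals of TCP3, TCP9 and TCP10 also lie above 0 and that of TCP20 below.

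By group means in Ak-1, the order of levels was TCP14 (33.3 FPKM), TCP10 (15.7), TCP4 (15.4), TCP2 (13.8), TCP24 (7.26), TCP15 (5.66) and TCP3 (1.21). In the hybrid it was the same, at 28.6, 23.7, 20.0, 15.7, 7.02, 5.34 and 4.06 FPKM. The last place of TCP3 depends on how reads shared with AT1G53233 were divided. Summed with that locus it had 11.1 and 9.88 FPKM in Ak-1, above TCP24 and TCP15, and 8.57 and 5.51 in the hybrid. Neighbours whose ranges overlapped in Ak-1 were TCP10 with TCP4 and TCP4 with TCP2. In the hybrid they were TCP4 with TCP2, TCP24 with TCP15 and TCP15 with TCP3. Within single libraries the order of the hybrid means held in both hybrid libraries, whereas in Ak-1 TCP4 was above TCP10 in replicate 1 and TCP2 above TCP4 in replicate 2. Together the 5 miR319-targeted members had 53.2 and 53.5 FPKM in Ak-1 against 79.5 and 61.3 in the hybrid. TCP14 and TCP15 together had 36.5 and 41.4 FPKM in Ak-1 against 37.0 and 31.0 in the hybrid. The 7 members made up between 44.4% and 48.6% of the summed FPKM of all 24 TCP genes in each library.

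Of the 17 other TCP genes, 11 passed the filter. Of these, 1 was called higher in the hybrid, against 1.62% of all tested loci, none lower and 10 were not called. Their median log2 difference was 0.06, against −0.06 over all tested loci. The gene called higher was TCP23 (AT1G35560), a class I gene that acts in flowering time. It was at 2.52 and 2.59 FPKM in Ak-1 against 17.2 and 15.4 in the hybrid. The groups were far apart beside the distance within each, and the hybrid mean was 6.38 times that of Ak-1 (log2 difference 2.28, SE 0.14, limma adjusted p = 0.00447). No annotated gene overlaps TCP23. The call was lost without Ak-1 replicate 1 (adjusted p = 0.0892) and without Ak-1 replicate 2 (0.110), while the difference remained 2.27 and 2.29. As Col-0 was not analysed, a higher level of the Col-0 allele and a change in the hybrid cannot be told apart.

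The 3 other TCP genes with the highest mean were TCP22, at 21.9 and 23.9 FPKM in Ak-1 against 20.8 and 27.4 in the hybrid, AT5G08330, at 17.3 and 19.0 against 22.0 and 9.77, and TCP13, at 19.5 and 17.0 against 12.9 and 16.9. None of them was called. AT5G08330, called TCP21 or CHE and known to bind the promoter of the clock gene CCA1, resembled TCP2 in the distance between its hybrid libraries, with replicate 1 at 2.26 times replicate 2. The CIN-type genes without a miR319 site, TCP5, TCP13 and TCP17, had log2 differences of 0.19, −0.29 and 0.34 and were not called.

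The 3 miR319 precursor loci MIR319A, MIR319B and MIR319C were listed at 0 in all 4 libraries, as were MIR164A and MIR396A, and MIR396B was above 0 only in hybrid replicate 2 (0.39 FPKM). These libraries were not made from small RNA, so the zeros give no measure of mature miR319. Of 6 tested genes of microRNA production and of the related miR159 target group, none was called (median −0.04), against 4.13% of all tested loci. Among them DCL1, which cuts microRNA precursors, was at 6.88 and 6.44 FPKM in Ak-1 against 7.24 and 6.84 in the hybrid, and AGO1, which carries microRNAs to their targets, at 39.9 and 42.4 against 40.2 and 37.4. MYB33, a miR159 target that miR319 can also pair with, had the smallest adjusted p of these (log2 difference 0.22, limma adjusted p = 0.490).

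Of 14 genes for proteins that bind TCP factors, 8 were tested and none was called (median 0.02), against 4.13% of all tested loci. The adapter genes TIE1, TIE2, TIE3 and TIE4, which link TCP proteins to the corepressor TOPLESS, were at 0.75 FPKM or less in every library. DA1, for a peptidase that acts on TCP14 and TCP15, had the smallest adjusted p, at 4.03 and 4.12 FPKM in Ak-1 against 3.01 and 2.94 in the hybrid (log2 difference −0.35, limma adjusted p = 0.251). Both its hybrid libraries lay below both Ak-1 libraries, as for 3 of the 8 tested genes of this list and 32.6% of all tested loci.

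Genes reported as targets of CIN-type factors included 2 called higher of 8 tested, none lower and 6 not called. Over all tested loci 1.62% were called higher. The median log2 difference was 0.40, and 7 of the 8 differences were positive, where over all tested loci the median was −0.06 and 6718 of 15905 were positive. The list was chosen with earlier results of these data known, so its direction was not tested. PIF4 was the tested gene with a negative difference (−0.28, limma adjusted p = 0.444). The 4 genes of the list under the filter were not tested, and all had lower hybrid means. In Ak-1 against the hybrid these means were 0.62 and 0.14 FPKM for YUC5 and 0.255 and 0.11 for CO. They were 1.025 and 0.79 for VND7 and 0.435 and 0.375 for ARR16. SAUR65, a small auxin-induced gene of cell expansion, was at 3.47 and 5.40 FPKM in Ak-1 against 22.1 and 17.7 in the hybrid, a log2 difference of 1.96 (SE 0.23, limma adjusted p = 0.0177). GIS, for a zinc finger factor of trichome formation that TCP4 is reported to activate, was at 2.65 and 2.10 FPKM in Ak-1 against 8.78 and 8.03 in the hybrid (1.48, SE 0.16, adjusted p = 0.0139). For both, each hybrid library was above each Ak-1 library by more than the distance within groups. With no filter on low values the adjusted p of SAUR65 was 0.0553 and that of GIS 0.0505, and without Ak-1 replicate 1 or 2 they were 0.136 and 0.128 for SAUR65 and 0.123 and 0.183 for GIS.

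IAA3, an auxin repressor gene reported as a direct target of TCP3 and overlapped on the other strand by AT1G04230 over 39.6% of its exonic bases, was at 8.54 and 7.04 FPKM in Ak-1 against 10.3 and 16.2 in the hybrid (log2 difference 0.67, limma adjusted p = 0.211). LOX2, a lipoxygenase gene of jasmonate synthesis that TCP4 binds, was at 122 and 86.2 FPKM in Ak-1 against 81.2 and 193 in the hybrid, so that the hybrid values enclosed the Ak-1 values (log2 difference 0.29, adjusted p = 0.772).

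Among 10 genes reported as targets of class I factors, 8 were tested, 1 was called higher, none lower and 7 were not called. The share called higher among all tested loci was 1.62%. The median log2 difference of the 8 was 0.28, against −0.06 over all tested loci. This list too was chosen with earlier results of these data known. The 2 genes not tested, CYCA1;1 and CYCB1;1, had lower hybrid means. SAUR63, which TCP15 is reported to act on, was at 5.30 and 7.80 FPKM in Ak-1 against 17.6 and 23.5 in the hybrid (log2 difference 1.52, SE 0.23, limma adjusted p = 0.0342). Its call was lost with no filter on low values (adjusted p = 0.0852), without either Ak-1 library (0.240 and 0.166) and without hybrid replicate 2 (0.0773). SAUR63 and SAUR65 are similar close neighbours, which may share reads, and an annotated gene on the opposite strand spans SAUR63. The calls on SAUR63 and SAUR65, in different target lists, may therefore not be separate. CCA1 was at 146 and 143 FPKM in Ak-1 against 174 and 251 in the hybrid (log2 difference 0.53, adjusted p = 0.253), and HBI1, for a growth-promoting factor, at 31.0 and 31.5 against 42.1 and 38.6 (0.36, adjusted p = 0.231).

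**Figure D5:**
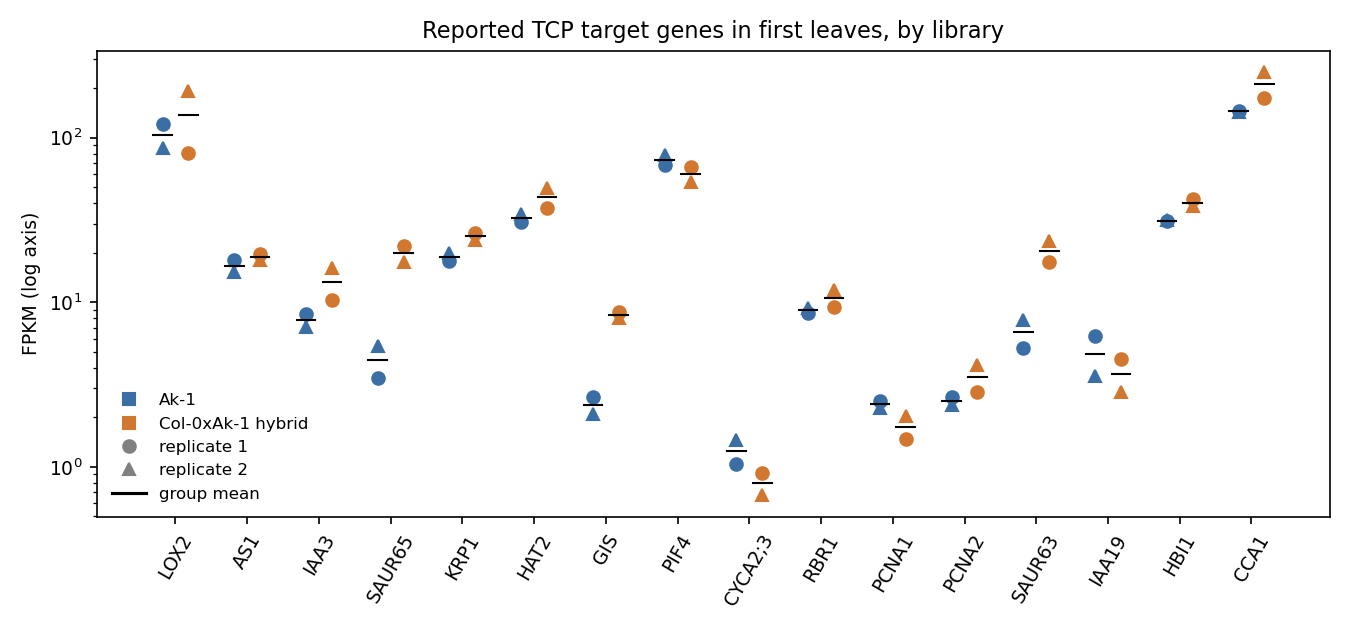
FPKM on a log axis (y axis) of the 16 tested genes reported as targets of CIN-type or class I TCP factors (x axis) in each library, with Ak-1 in blue, the hybrid in orange and black lines for group means (n = 2). SAUR65, GIS and SAUR63 show the widest gaps between the groups, while the hybrid points of LOX2 enclose those of Ak-1.

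The list of GRF genes, growth regulators that CIN-type factors act on through miR396, and their GIF coactivators ranged widely in level. The highest was GIF2, at 17.2 and 17.2 FPKM in Ak-1 against 18.0 and 17.5 in the hybrid, while each of the others was at 2.66 FPKM or less in every library. Of the 12, 5 passed the filter and none was called, against 4.13% of all tested loci. GRF3 had the smallest adjusted p, at 2.66 and 1.49 FPKM in Ak-1 against 0.56 and 0.13 in the hybrid (log2 difference −1.19, limma adjusted p = 0.104). In the CIN-type and class I target lists the motifs GTGGNCCC and GTGGGNCC, which TCP factors bind, were searched on both strands from 250 bases before to 50 after each gene's start. A single promoter of the 12 CIN-type targets, that of KRP1, held GTGGNCCC, and of the 10 class I targets that of RBR1 held both motifs at the same bases and that of CCA1 held each at a place of its own. Among all 27444 protein-coding genes 0.787% held GTGGNCCC and 1.32% held GTGGGNCC. No promoter of the 7 members held either.

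The loci whose profile over the 4 libraries was nearest to the mean profile of the 5 miR319-targeted members (Euclidean distance of centred log2(FPKM + 1)) were BBX15 (distance 0.011), AT5G24570 (0.040) and OBP3 (0.047). That mean does not describe each member. TCP3, whose reads overlap those of AT1G53233, had the largest log2 difference of the 5, at 1.17. For TCP2 and TCP24 it was 0.09 and −0.06. BBX15, a B-box protein gene, was at 114 and 115 FPKM in Ak-1 against 181 and 133 in the hybrid. Nearest to the mean profile of TCP14 and TCP15 were AT1G08350 (0.024), GLP10 (0.026) and nPAP (0.026). With 4 libraries many loci share a profile, and 14 and 131 loci lay within a distance of 0.1.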

How the data were processed

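Total RNA of first leaves (RNeasy extraction) went into TruSeq RNA V2 libraries, per the labels' protocols, a kit known not to mark strand. The authors deposited 1 FPKM value per locus and library. The submitters' processing notes list build TAIR10 and, without roles, edgeR 3.12.0, Cufflinks 2.0.2, TopHat and TopHat2 2.0.8b; the sources used here do not give how reads in overlapping loci were divided. Because FPKM are normalized values, no count test was run.

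The 15905 loci whose mean over the 4 libraries reached 1 FPKM were tested on log2(FPKM + 1), a pseudocount of 1 that understates changes of low genes, with limma 3.58.1 in R 4.3.3 (mean-variance trend, two-sided, no covariate), hybrid minus Ak-1. Adjusted p are Benjamini-Hochberg over all tested loci, and the threshold was 0.05. The procedure was tested on simulated data. There it called 14 of 67 genes changed by 1 log2 unit, so most changes of that size were missed. It called 45 of 67 genes changed by 2 units, 53 of 66 changed by 3 units and 3 of 15705 unchanged ones. The fragments behind a value were estimated from the most frequent low product of FPKM and transcript length, taken as 1 fragment; they cover counting only, assume the longest RefSeq transcript and are approximate. Gene structure, overlaps and sequences come from RefSeq build TAIR10.1, in which 31416 of the 34133 loci were found. Named genes were the 7 members, and from each of 10 further lists up to 3 called genes or the gene of smallest adjusted p, with the highest other TCP genes, the MIR319 loci and the largest target differences. DCL1, AGO1, the TIE genes, LOX2, KRP1, RBR1, GIF2, CYCA1;1, CYCB1;1, TCP5, TCP9, TCP17 and the antisense loci were added after their values were seen. So were CYCA2;3, PCNA1, PCNA2, PIF4, YUC5, CO, VND7 and ARR16. The members and lists were chosen with earlier results of these data known.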

Additional observations from a re-analysis of the deposited data

How the results depend on the processing

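With 1 Ak-1 library left out, the remaining one is assumed to vary as the hybrid pair does, and calls over all loci dropped from 257 higher and 400 lower to 3 and 1; the highest counts came without hybrid replicate 1, at 619 and 899. Under a stricter filter, a mean of 5 FPKM or more, there were 92 higher and 206 lower, and with no filter on low values 173 lower. Members called higher ranged from 0 to 1 as single libraries were left out, the 1 being TCP3 without hybrid replicate 2 (log2 difference 1.47, between 0.87 and 1.47 over the libraries left out). Signs turned for TCP2 (−0.37 without hybrid replicate 1; highest 0.56), TCP24 (0.042 after quantile normalization; −0.28 to 0.16 over the libraries left out), TCP15 (0.0067 after quantile normalization; −0.41 to 0.20 over them) and TCP3 summed with its antisense locus (−0.54, an alternative chosen after seeing the data); the cause was not tested. No member was called lower in any alternative. The replicate numbers do not pair the samples by any label; replicate 2 minus replicate 1 correlated at −0.138 between the groups across loci, and with the replicate block 200 loci were called higher and 365 lower, none of the 7 members among them (TCP3 1.17, adjusted p = 0.0815; TCP10 0.56, adjusted p = 0.191), while the call on AT2G45685 was lost (adjusted p = 0.0722). Some values rest on few estimated fragments, such as about 40 for TCP3 and 12 for TCP9 in Ak-1 and 23 and 5 for GRF3 in the hybrid.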

Other observations

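Pairs outside the TCP genes showed an exchange like that of TCP3 and its antisense locus. Over the annotation, 125 pairs of a coding gene and an antisense RNA locus on the opposite strand shared at least 500 bases and 70% of the shorter locus, with at least 30 estimated fragments in every library; these limits were set after the TCP3 values were seen. The share of a pair's fragments given to the coding gene differed by over 30 percentage points between the group means for 56 pairs, 38 of them upward and 18 downward in the hybrid. Between the Ak-1 libraries 0 pairs differed by as much, and between the hybrid libraries 1 did. The change of TCP3, 45.0 points, was exceeded in size by 37 pairs, 24 of them upward and 13 downward, and that of TCP9 was 54.7 points. Shares did not overlap between the groups for 104 of the 125 pairs, and the median change was 7.4 points with quartiles of −4.1 and 33.3. A difference between the groups in how the reads of overlapping loci were divided and a difference in the RNAs cannot be told apart in files without strand.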
